A study of Arabidopsis thaliana with 2 samples.

Results

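The loci described here are the 3480 nuclear loci that the RefSeq gene table of Arabidopsis thaliana classes as long noncoding RNA (lncRNA), among 37899 annotated nuclear loci in all. They were chosen by that annotation alone and without any measured value. Each locus was counted as holding a summit when the highest point of a peak lay inside its bounds or within 200 bp of them, and loci were divided by their distance to protein-coding genes. Of the 3480 loci, 1421 shared bases with a protein-coding gene, 1237 lay within 1000 bp of one and 822 lay farther away. Below, these are the overlapping, the near and the far loci.

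The study mapped where the atypical basic helix-loop-helix (bHLH) protein IBH1 sits on the genome, by chromatin immunoprecipitation and sequencing of whole seedlings of the ecotype Col-0. One library came from the line p35S::IBH1-GFP (IBH1OE), which carries IBH1 fused to green fluorescent protein (GFP) under the constitutive 35S promoter, and 1 came from p35S::GFP (GFP OE). Both lines were 10 days old, were grown untreated at 22 °C with 16 h of light, and were precipitated with an antibody against GFP, and each library pooled 3 ChIP experiments. The sample title of the tagged line reads IBL1, whereas its line and the series' design read IBH1, and the library protocol calls the control Col-0, whereas its line is p35S::GFP. With 1 library per group there is no replicate error and no test between groups, so shares and densities are given with exact intervals that cover counting error only, and none of the differences below was tested against replicates. The deposited list does not give the control's value at any peak.

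Long noncoding RNAs are transcripts without a long open reading frame. In plants some are transcribed antisense to a protein-coding gene, some start from the shared upstream region of a neighbour and some come from intergenic DNA, and several take part in flowering time, light response and nutrient signalling. IBH1 is a helix-loop-helix repressor of cell elongation that lacks the basic residues with which typical bHLH proteins contact DNA. It is known to act by pairing with DNA-binding, growth-promoting bHLH proteins. A peak over a lncRNA locus is a place where chromatin was recovered with the tagged protein, and the measurement says nothing of the RNA itself.

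Summits were present at a small share of lncRNA loci. Of the 3480 loci, 157 held a summit, or 4.51% (exact 95% interval 3.85% to 5.25%). By the same rule, 7.35% of all nuclear loci and 8.7% of the 27444 protein-coding genes (8.37% to 9.04%) held one. The 157 loci shared 146 summits, since 11 summits lay at a pair of lncRNA loci, and no locus held more than 1 summit. The summit was inside the locus in 112 cases (3.22% of the loci, against 5.86% of all nuclear loci and 7.05% of protein-coding genes by that stricter rule). In the other 45 it lay outside, at a median distance of 71 bp. Of the loci holding a summit, the one nearest the limit was AT3G04025, 196 bp from its summit, and the first to miss it was AT5G09085, at 201 bp.

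**Figure D1:**
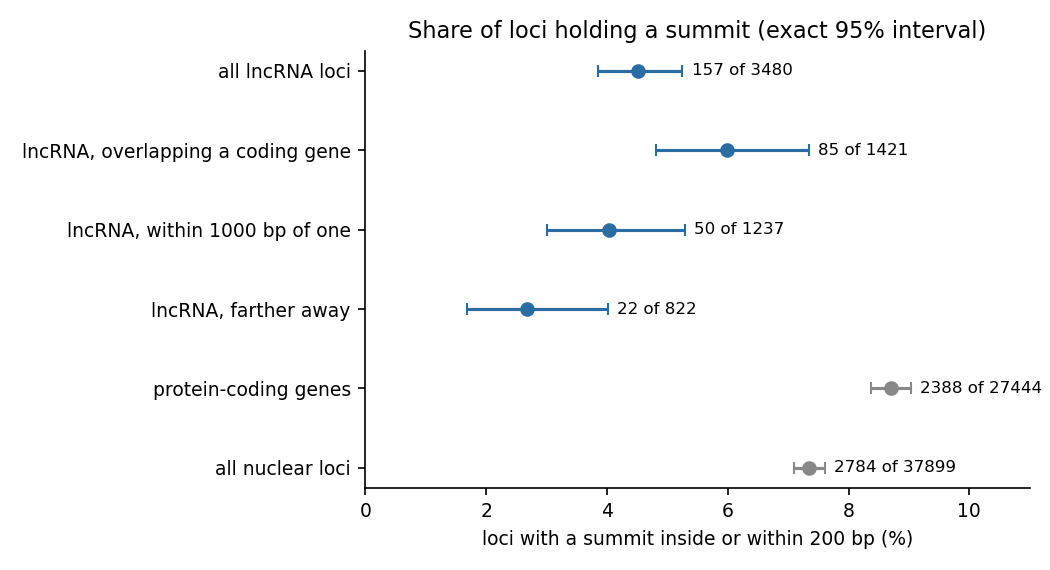
Percentage of loci with a summit inside or within 200 bp, for lncRNA loci by position, for protein-coding genes and for all nuclear loci, as points with exact 95% intervals as bars. The far loci are lowest at 2.68%, the overlapping loci reach 5.98%, and each lncRNA class lies below the 8.7% of protein-coding genes.

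The lower share went with shorter loci. The lncRNA loci had a median length of 343 bp (quartiles 250 and 506 bp), against 2078 bp for protein-coding genes, and a longer locus has more room for a summit. Among lncRNA loci of 250 bp or less, 2.95% held a summit, and the share was 3.74% at 251 to 500 bp, 5.23% at 501 to 1000 bp, 11.1% at 1001 to 2000 bp and 12.6% above that. Protein-coding genes of the same lengths had 3.22%, 2.78%, 4.81%, 7.76% and 10.6%. The exact intervals of both kinds of locus overlapped in each of these 5 length ranges. Weighted to the lengths of the lncRNA loci, the share of protein-coding genes was 3.78%, just under the interval of the lncRNA loci. No interval was computed for this weighted share, so the values cannot be called apart. It leans on the shortest ranges, where only 11 of 342 and 25 of 900 protein-coding genes held a summit. The members with a summit were longer than the rest, with a median of 453 bp against 335 bp.

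**Figure D2:**
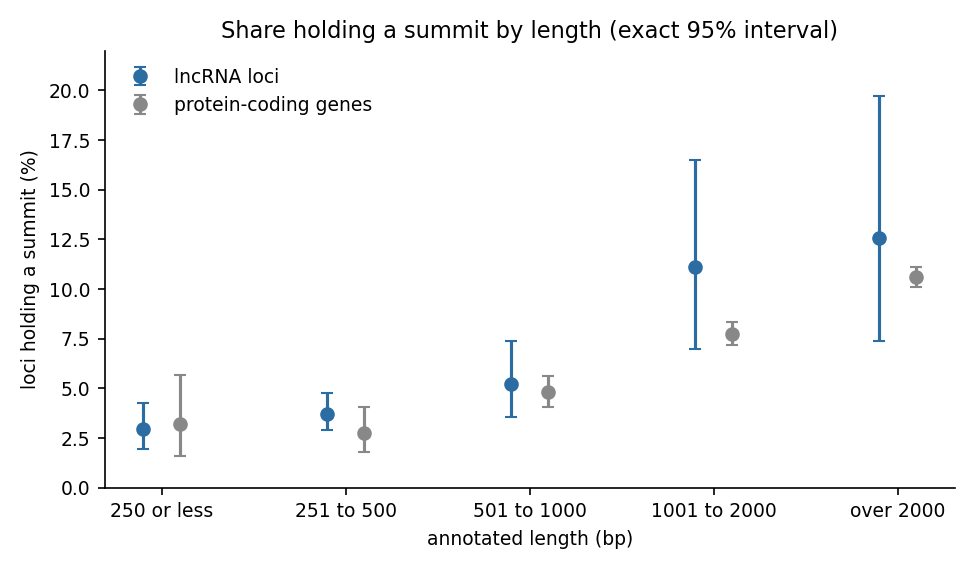
Percentage of lncRNA loci and of protein-coding genes holding a summit, by annotated length in bp, with exact 95% intervals. In each length range the intervals of both kinds overlap, and both rise from about 3% in the shortest to over 10% in the longest loci.

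Per base and outside protein-coding genes, summits were denser inside lncRNA loci than in the bases around them. Among bases over 1000 bp from any protein-coding gene, the interior of lncRNA loci held 21 summits in 0.367 Mb, or 57.3 per Mb (95% Poisson interval 35.4 to 87.5). The surrounding 1 to 200 bp held 14.8 per Mb (4.81 to 34.6) and the next 201 to 500 bp held 6.47 per Mb (1.33 to 18.9). Farther out the density was 15.8 per Mb at 501 to 1000 bp, 14.9 at 1001 to 2000 bp and 13.9 at 2001 to 5000 bp, values like that of the nearest 200 bp. Bases over 5000 bp from any lncRNA locus held 7.61 per Mb (6.56 to 8.78). Close to genes the interior was again densest. Outside protein-coding genes but within 1000 bp of one, the interior held 74.7 summits per Mb (53.1 to 102.1). The density was 32.7 (18.7 to 53.2) at 1 to 200 bp, an interval that just met that of the interior. It was 20.2 (10.7 to 34.5) at 201 to 500 bp and 26.0 (23.7 to 28.5) beyond 5000 bp. Within protein-coding genes the bases shared with a lncRNA locus held 49.3 per Mb (35.9 to 65.9), and the next 1 to 200 bp held 44.4 per Mb (27.1 to 68.5), with widely overlapping intervals. The density was 30.2 per Mb (28.6 to 31.7) over 5000 bp from any lncRNA locus. Within genes it was lowest at 201 to 500 bp, with 13.7 per Mb (6.55 to 25.1), and 41.3 per Mb (31.5 to 53.1) at 501 to 1000 bp.

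The span of each locus with 200 bp on both sides gave the same picture. Over 1000 bp from protein-coding genes, these spans held 26 summits at 36.9 per Mb (24.1 to 54.1) and all other bases 255 summits at 8.6 per Mb (7.58 to 9.72). Many of those other bases, 29.7 Mb in all, lie in gene-poor windows, defined as stretches of 500000 bp with under 60 protein-coding genes, and 15.1 Mb remained without them. With these windows left out, the values were 40.0 per Mb (25.6 to 59.5) and 14.4 per Mb (12.6 to 16.5), and the intervals still did not overlap. With other annotated loci such as pseudogenes left out instead, they were 32.9 and 8.45 per Mb. As a share of the peak list, lncRNA loci accounted for 146 of 2944 nuclear summits (4.96%, 4.2% to 5.81%). They accounted for 81 of the 957 summits outside protein-coding genes (8.46%) and for 26 of the 281 over 1000 bp from one (9.25%, 6.13% to 13.3%).

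**Figure D3:**
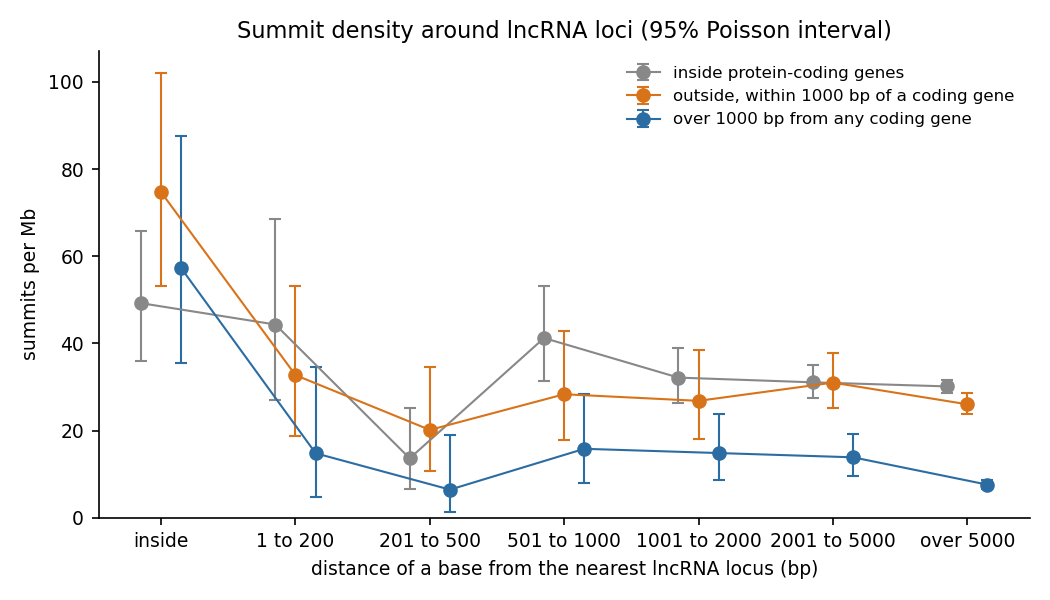
Nuclear summits per Mb of sequence by distance in bp from the nearest lncRNA locus, drawn apart for bases inside protein-coding genes, within 1000 bp of one, and farther away, with 95% Poisson intervals. Each line is highest inside lncRNA loci (49.3, 74.7 and 57.3 per Mb) and lowest at 201 to 500 bp from them.

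The overlapping loci held summits most often. They had 85 of 1421 loci with a summit, or 5.98% (4.81% to 7.34%), against 72 of 2059 for the other lncRNA loci, or 3.5% (2.75% to 4.38%). The overlapping loci were also longer, with a median of 397 bp. Of them, 168 were 1001 to 2000 bp long and 122 longer, against 16 and 2 near and 5 and 3 far loci. In these 2 ranges 10.7% and 12.3% of the overlapping loci held a summit. At 250 bp or less, overlapping, near and far loci had 4.44%, 2.62% and 1.74%. At 251 to 500 bp they had 3.75%, 4.24% and 3.02%, and at 501 to 1000 bp 6.55%, 5.62% and 1.65%. The part of length in the difference between classes was not tested. In 66 of the 85 the summit was inside a protein-coding gene as well, so that peak cannot be assigned to one of the pair. This count follows in part from the class, whose loci all share bases with such a gene. Of the nuclear summits not at lncRNA loci, 68.7% were inside a protein-coding gene. The table used gives no strand, so antisense loci could not be told from sense ones. Of the 902 lncRNA loci that lie wholly inside a protein-coding gene, 4.21% (3% to 5.74%) held a summit. For the 426 that overlap a gene in part the share was 7.98% (5.59% to 11%). For the 93 that contain a whole gene, with a median length of 2435 bp, it was 14% (7.66% to 22.7%).

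The highest score at any lncRNA locus belonged to AT3G07435, a locus of 215 bp inside the protein-coding gene AT3G46540. A score is the value the authors' peak caller gave each peak. Its peak, at positions 17135625 to 17138280 of chromosome 3 in TAIR9, scored 276.61, which ranked 24 among the 2944 nuclear peaks, and rose to 57 stacked fragments at the summit. It ran on past the end of AT3G46540 across the whole neighbouring gene SOS5, which encodes a cell-surface arabinogalactan protein, and the summit was 289 bp from that gene. The next was AT2G04852, which overlaps AT2G04850 and lay 21 bp from a summit that scored 226.71 and was 28 fragments high (chromosome 2, 1703700 to 1705685). The third, AT1G06753, lies inside STOP1, the gene of a zinc finger factor for tolerance of acid soil and aluminium. Its summit, 142 bp outside the lncRNA locus but within STOP1, scored 183.41 and was 43 fragments high (chromosome 1, 12549791 to 12550893).

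AT3G46668 overlaps both AT3G46666 and UGT76E11, a glycosyltransferase gene, and lay 62 bp from a summit scoring 159.37 (chromosome 3, 17190500 to 17192140). AT1G04697 lies inside AT1G09390 and held its summit, with a score of 159.32 (chromosome 1, 3031144 to 3032288). Both summits were 42 fragments high. So in 3 of these 5 leading loci the summit lay beside the lncRNA locus and inside the protein-coding gene it overlaps.

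Among the remaining overlapping loci with a score of 100 or more, the following were named after their values were seen. The tallest summit at any lncRNA locus, 81 fragments, lay 71 bp from AT4G03585, which overlaps CYP86A2, a fatty acid hydroxylase gene of cutin formation, and its score was 153.84. AT5G09645, which overlaps DAR6 in part, held a summit with a score of 156.03. AT4G05815 overlaps both AT4G10750 and MTA, the gene of an mRNA adenosine methyltransferase. Its summit, 3 bp away and inside AT4G10750, scored 148.4. AT5G06395 overlaps U2AF35B, a splicing factor gene, and held a summit scoring 120.74 inside both loci. AT1G20691, which overlaps AT1G20690, held a summit scoring 113.93 that was outside protein-coding genes and 121 bp from HMGB2, a gene of a chromosomal high mobility group protein. AT4G05760, at CNX7 of molybdenum cofactor synthesis, lay 45 bp from a summit scoring 111.5. In all, 25 overlapping loci had a summit with a score of 100 or more. With the 9 near and 6 far ones this made 40 lncRNA loci, or 1.15%, against 1.93% of all nuclear loci and 2.28% of protein-coding genes.

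Protein-coding genes overlapped by a lncRNA locus were compared with those that were not. Of 1517 overlapped genes, 148 held a summit inside or within 200 bp, or 9.76% (8.31% to 11.4%), against 8.64% (8.3% to 8.99%) of the 25927 others. The intervals overlapped. For genes of 501 to 1000 bp the shares were 8.05% (4.23% to 13.6%) and 4.65% (3.92% to 5.47%). At 1001 to 2000 bp they were 9.64% (7.15% to 12.7%) and 7.65% (7.08% to 8.24%), and above 2000 bp they were 10.0% and 10.6%. Only among the 26 overlapped genes of 251 to 500 bp did the interval clear that of the others, with 4 genes or 15.4% (4.36% to 34.9%) against 2.4% (1.49% to 3.65%).

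Of the near loci, 50 of 1237 held a summit, or 4.04% (3.01% to 5.29%). In 41 of them the peak covered the whole lncRNA locus. The near loci had a median length of 312 bp, and the peaks at those with a summit had a median width of 760.5 bp. The pair AT5G07115 and AT5G07125, which overlap each other, led with 1 summit inside both. It lay 867 bp from AT5G48420, scored 177.07, rank 135, and was 46 fragments high (chromosome 5, 19625285 to 19625895). AT3G03375 held a summit scoring 149.34, also 46 fragments high, 394 bp from TPR2, a TOPLESS-related corepressor gene (chromosome 3, 5730654 to 5731715). AT5G07325 held a summit scoring 144.54, 275 bp from AT5G49060 (chromosome 5, 19885181 to 19886431), and AT3G04555 one scoring 123.0, 98 bp from AT3G23605 (chromosome 3, 8477261 to 8478076). In each of these 5 leading loci the summit was inside the lncRNA locus, which for a near locus puts it outside protein-coding genes by definition.

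Distance to the gene did not order the shares among near loci. At 1 to 250 bp from a protein-coding gene 3.05% held a summit (1.47% to 5.54%), at 251 to 500 bp 4.7% (2.81% to 7.33%) and at 501 to 1000 bp 4.18% (2.64% to 6.26%). Chromosome 2 stood low, with 1 of 188 near loci (0.532%, 0.0135% to 2.93%), while the other chromosomes had 4.08% to 5.28%. Without chromosome 2 the share was 4.67% (3.48% to 6.13%). The protein-coding genes of chromosome 2 showed no such low value, with 9.82% holding a summit.

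The far loci had the lowest share, 22 of 822 or 2.68% (1.68% to 4.02%), an interval that overlapped that of the near loci. Their median length was 315 bp, close to that of the near loci. The share was 2.78% at 1001 to 2000 bp from a protein-coding gene, 2.21% at 2001 to 5000 bp and 3.36% beyond (0.923% to 8.38%). The limit between near and far fell between AT5G05745, 1000 bp from a gene, and AT3G09935, at 1003 bp. The 22 loci shared 19 peaks with a median score of 78.8 (50.5 to 210.5), against 69.0 for the 44 peaks at near loci and 73.5 for the 84 at overlapping loci.

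AT4G07235 and AT4G07240, which overlap, led the far loci. They held 1 summit, 50 fragments high and scoring 210.5, rank 82, at 1372 bp from the nearest protein-coding gene, AT4G24050 (chromosome 4, 12501188 to 12502319). AT5G04595, of 204 bp, held a summit scoring 209.55 with a height of 39, and it lay 5263 bp from any protein-coding gene (chromosome 5, 9966265 to 9967608). The peak was wider than that locus and also reached across a second lncRNA locus, AT5G04605. AT2G24755 is the longest of the far loci, at 7767 bp, and held a summit scoring 121.39 with a height of 23, within 200 bp of the transcribed pseudogene AT2G24750 (chromosome 2, 10543612 to 10545062). AT3G05995 held one scoring 120.39 with a height of 39, 10673 bp from any protein-coding gene inside a gene-poor window, and within 200 bp of the transcribed pseudogene AT3G30120 and the miscellaneous RNA locus AT3G06005 (chromosome 3, 11756829 to 11757779). AT5G09170 scored less, 98.5, but its summit was 70 fragments high, and it is named after its value was seen.

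**Figure D4:**
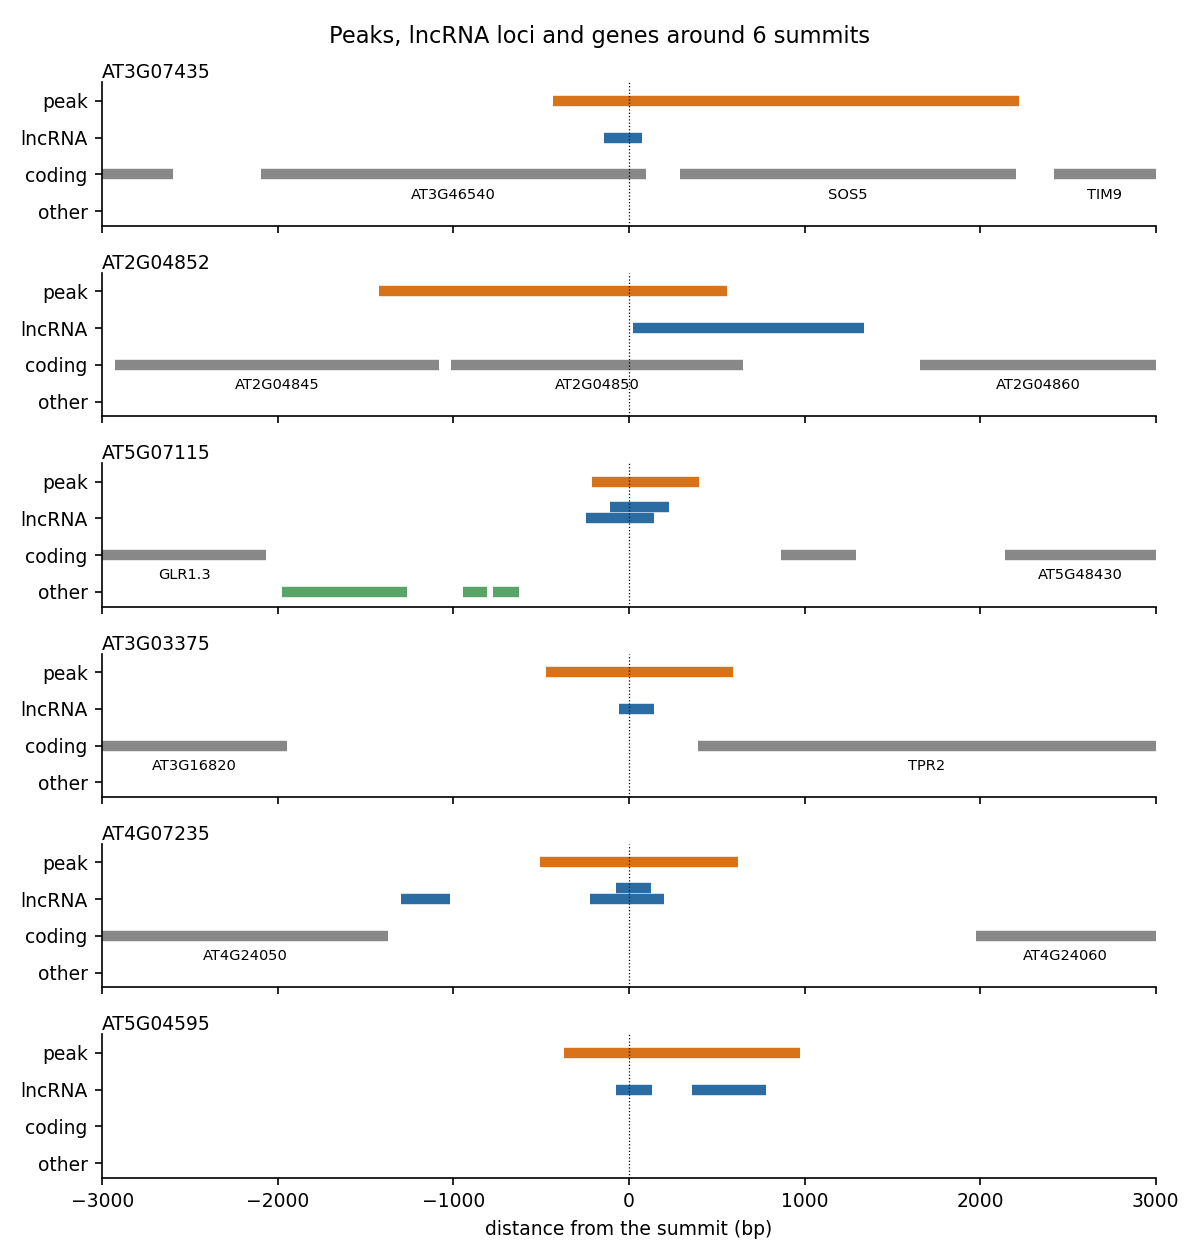
Peaks (orange), lncRNA loci (blue), protein-coding genes (grey) and other annotated RNA loci (green) within 3000 bp of 6 summits, against the distance in bp from the summit (dotted line). The panels show the leading pair of peaks in each class, and the summit falls inside a blue bar in all but that at AT2G04852, where it is 21 bp outside.

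The peaks at lncRNA loci had values like those of other peaks. Their median score was 73.0 (quartiles 57.4 and 101.3, n = 146 peaks), against 72.8 (59.0 and 99.5) for the other 2798 nuclear peaks. The median summit height was 27 fragments in both sets, and the median width was 915 bp against 884 bp. A score of 100 or more was reached by 37 peaks at lncRNA loci (25.3%, 18.5% to 33.2%) and by 24.7% of the others. Among the tenth of nuclear peaks with the highest scores, 15 of 294 (5.1%) had their summit at a lncRNA locus, close to the 4.96% of all summits. Outside protein-coding genes the median height was 28 fragments at lncRNA loci and 31 elsewhere. The 81 peaks at lncRNA loci there had a median score of 73.9, against 76.9 for the 876 others.

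**Figure D5:**
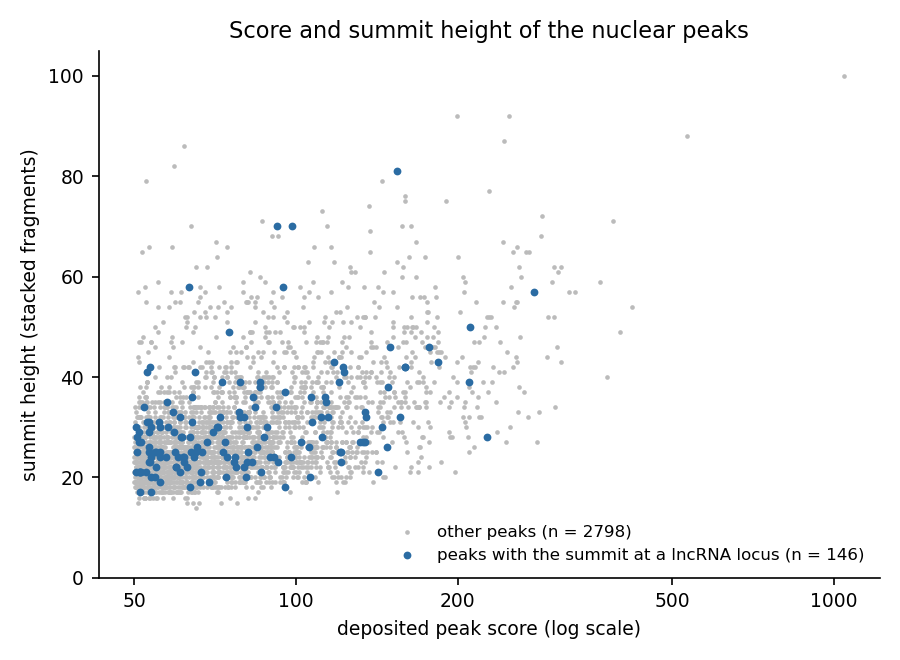
Summit height in stacked fragments against the authors' deposited peak score (log scale) for each nuclear peak, with the 146 peaks whose summit lies at a lncRNA locus in blue and the other 2798 in grey. The blue points spread through the grey cloud between scores of 50.4 and 276.6, while the grey points reach 1045.7.

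Along the chromosomes, the share of lncRNA loci with a summit was highest close to gene-poor windows. In a belt of up to 2 Mb around these windows, 56 of 648 loci held one, or 8.64% (6.59% to 11.1%). The share was 4.26% at 2 to 5 Mb, 3.19% (2.44% to 4.08%) beyond 5 Mb and 4.48% (2.17% to 8.09%) inside the windows. Protein-coding genes had 17.0%, 10.2%, 5.63% and 11.6% in the same places. Of the overlapping loci, 15.5% (10.7% to 21.4%) held a summit in that belt and 3.6% (2.47% to 5.04%) beyond 5 Mb. Near loci had 7.75% (4.8% to 11.7%) and 2.76% (1.65% to 4.33%). Far loci had 3.05% (1.13% to 6.51%) and 2.93% (1.42% to 5.33%), values with widely overlapping intervals. By chromosome, 7.02% (4.96% to 9.58%) of lncRNA loci on chromosome 4 held a summit and 3.03% to 4.59% on the others. Overlapping loci on chromosome 4 reached 10.8% (6.92% to 15.9%), where protein-coding genes also had their highest share, 11.9%.

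The lncRNA loci beside genes of the growth pathways in which IBH1 acts were too few to compare with the rest. A list of 90 bHLH network, brassinosteroid, light, clock and gibberellin genes had 14 lncRNA loci that overlap a member or have it as their nearest protein-coding gene, and 0 of these 14 held a summit within 200 bp. With 3 counts taken as the limit that a count of 0 allows, the share could be up to 21.4%, and the 4.51% of all lncRNA loci lies below that. Of the 90 genes themselves, 20 held a summit, PIF5, LKP2 and RGL1 among them, where 8.7% of all protein-coding genes did. The list was chosen with earlier results of these data known and was not matched for gene length, so that difference was not tested. The closest case was AT3G09185, 420 bp from PIF5, a growth-promoting bHLH factor of light signalling, with the nearest summit 695 bp from the lncRNA locus. AT2G09405, 503 bp from PAR1, an atypical bHLH repressor of shade responses, was 1694 bp from a summit. AT2G18917, which overlaps the photoreceptor gene LKP2, was 2028 bp from one. AT1G08843, 2290 bp from the DELLA repressor gene RGL1, was 2660 bp from one. For the 10 other loci, including those at BZR1, DWF4, PIF4 and GAI, the nearest summit was 8167 bp or more away.

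A list of 18 loci with published roles as noncoding RNAs was also examined. Only 2 of them carried the biotype lncRNA in the table. The others were annotated as ncRNA (11), protein-coding (3), snoRNA (1) or miscellaneous RNA (1) and so are not members. Of the 2 members, AT5G01675 overlaps FLC, the repressor of flowering that cold silences, and its nearest summit was 19487 bp away. AT1G69572 overlaps AT1G69570, and its nearest summit was 7635 bp away.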

How the data were processed

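Reads were processed with CASAVA 1.8.2, Bowtie and MACS on the genome build TAIR9, per the submitters' processing notes. How the programs were set, and whether the control library entered the calls, is not given in the sources used here. The deposited peak score is the caller's own value, and the deposited summit signal is a whole-number height in stacked fragments. Neither list names a sample. They were read as IBH1-GFP peaks, as the series' design describes occupancy by IBH1. Library depth is unknown, and peaks under the authors' threshold are not listed.

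The third column of the summit list was taken as the summit. Loci came from a RefSeq table of TAIR10.1, used only for names and neighbourhood, and printed peak coordinates are those of TAIR9. As a check of the builds, all summits were moved in steps of 100 bp, and the share inside protein-coding genes peaked at shifts from -200 bp to 0 on the 5 chromosomes. Over all chromosomes it was 67.6% at -100 bp and 67.5% at 0, and on chromosome 3 it was 69% at -200 bp and 65.8% at 0. The check therefore could not resolve shifts of up to the 200 bp window. Each locus was counted once by locus tag. Intervals are exact binomial (Clopper-Pearson) or Poisson at 95%. The last, shorter window of each chromosome was never called gene-poor, which left 36 of 235 windows. The window and class rules were tested on simulated summits. Analyses used Python 3.11.15, pandas 2.3.3 and scipy 1.17.1.

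Annotation alone decided which loci are members, but the lists and comparisons were chosen with earlier results of these data known. The rule named the 5 loci with the highest score in each class, list members with a summit and loci with more than 1 summit, and the last 2 kinds did not occur. List loci without a summit were named after their values were seen, and other additions are marked in the text. Promoter sequences, which the rule also allowed, were not used here. Alternatives varied the distance, score, peak position, merging of loci, chromosome and near limit.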

Additional observations from a re-analysis of the deposited data

How the results depend on the processing

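Of 56 combinations of result and alternative, 39 stayed within the counting interval of the main value or, for the count of loci, within 1.5 times of it, and 17 did not. These are counts, shares, densities and medians without a test, and each was compared with its own main value only. With scores of 100 or more, 40 loci held a summit, with shares of 1.76%, 0.728% and 0.73% for overlapping, near and far loci and a median score of 133.27. At or above the median score these were 80 loci, 3.1%, 1.94%, 1.46% and 100.37. Both settings use fewer peaks by construction. With summits inside the locus only, the overlapping share was 3.87% and 3.57% of summits were at lncRNA loci. Within 500 bp the latter was 5.84%. With summits outside protein-coding genes only, 91 loci held one, the overlapping share was 1.34% and 8.46% of those summits were at lncRNA loci. That setting lowers the overlapping share by construction, since 902 of the 1421 overlapping loci lie wholly inside a protein-coding gene. It leaves the near and far shares at 4.04% and 2.68%, so the overlapping loci were then the lowest class. The order against protein-coding genes also turned, with 2.61% (2.11% to 3.2%) of lncRNA loci and 1.47% (1.33% to 1.62%) of protein-coding genes. The share of protein-coding genes is lowered by construction too, since only summits beside a gene can count for it. Without gene-poor windows the density of other bases over 1000 bp from genes was 14.4 per Mb, an alternative chosen after seeing the data. Merging loci that overlap, peak midpoints, leaving out chromosome 4 and other near limits kept every share and median within its interval. The count of loci stayed within 1.5 times of the main value, and was lowest at 121 without chromosome 4. No paired analysis was possible because the peak list holds no values per library. Since depth is unknown, the absence of a peak at a locus does not show the absence of IBH1.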

Other observations

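The TOPLESS family of transcriptional corepressors was picked after its values were seen and was therefore not tested. Of the 5 family genes, 3 had a lncRNA locus within 1000 bp, and each of the 3 had one that held a summit. Because of how the family was picked, this count cannot be measured against the 4.51% of all lncRNA loci. That value is also a share of loci, whereas the count is of genes. TPR3 had a second lncRNA locus in that range, AT5G04335, without a summit. The summit at AT3G03375, beside TPR2, is described above. AT1G05197 held a summit 295 bp from TPL, scoring 74.97 and 49 fragments high (chromosome 1, 5420843 to 5421820). AT5G04345 held one 160 bp from TPR3, scoring 61.1 and 28 fragments high (chromosome 5, 9515168 to 9516081). The genes TPR1 and TPR4 had no lncRNA locus within 1000 bp, and their nearest summits were 96137 bp and 4688 bp away.

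Further summit-holding lncRNA loci, also picked by hand after their values were seen, overlapped or neighboured genes of known function. AT5G02465 held a summit scoring 81.5, 324 bp from CO, the photoperiod switch of flowering, and within 200 bp of the miRNA locus AT5G15833. AT3G08905, whose nearest gene is the MADS-box gene AGL18, held one scoring 113.24 at 1036 bp from it. AT1G07843 held one scoring 55.5, 912 bp from the stress factor gene NAC019. AT3G04025 overlaps FIE, a Polycomb gene, and lay 196 bp from a summit inside FIE that scored 53.7. AT2G24545 overlaps AFR, an F-box gene of phytochrome A signalling, and its summit scored 52.1. By score, the peaks at AT1G07843, AT3G04025 and AT2G24545 ranked only 2452, 2589 and 2732 among 2944, near the lowest listed score of 50.01.

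Of the 146 summits at lncRNA loci, 12 were also within 200 bp of another annotated noncoding locus. These were miscellaneous RNA (4 summits), snRNA (3), ncRNA (2), transcribed pseudogenes (2), a miRNA (1) and a pseudogene (1), and 1 summit had neighbours of 2 types. The same count was not made for the other nuclear summits. The 12 therefore have no background beside them and are not read as a trait of lncRNA loci.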
